A study of Rattus norvegicus with 49 samples.

Results

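The genes described here are those through which the liver senses growth hormone and answers it with insulin-like growth factor 1 (IGF1). They are 10 of the 15154 named genes on the array, read by 15 of its 30367 probes: Ghr, Igf1, Igfals, Igfbp2, Igfbp3, Stat5b, Socs2, Socs3, Cish and Bcl6. A probe belonged to a gene when its RefSeq accession carried that gene's symbol, and no expression value was used to choose it. Where a gene had several probes, the brightest in liver is reported and the others are given where they differ in sign or call.

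Growth hormone from the pituitary binds its receptor on hepatocytes and activates the kinase JAK2, which phosphorylates the transcription factor STAT5B. STAT5B then drives Igf1, the acid-labile subunit Igfals and the feedback inhibitors Socs2 and Cish. Most circulating IGF1 is made by the liver and travels in a complex with IGFBP3 and the acid-labile subunit. In rats the male pituitary releases the hormone in sharp pulses and the female pituitary more evenly, and many liver genes differ between the sexes as a result.

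The animals were F344 rats, an inbred strain, aged 7 to 8 weeks when dosing began. Furan, a contaminant of heated food, was given in corn oil by gavage on 5 days a week for 90 days at 1 of 4 doses: 2 mg/kg, 0.5 mg/kg, 0.12 mg/kg and 0.03 mg/kg. Control rats of both sexes received corn oil alone (0 mg/kg). Each sex and dose had 5 rats, each on an array of its own, except the males at 0.03 mg/kg, with 4. Liver RNA in 1 colour was hybridised against a universal rat reference RNA in the other, and a level here is the log2 ratio of liver over reference. The reference is a mixture of tissues, so a level says how a transcript stands against that mixture, and only differences between rats are compared below.

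The 49 arrays came from 8 slides. On 48 of them 37.9% to 71.1% of liver spots were well above background, whereas a single male given 0.03 mg/kg had 5.06%. That array was left out, so 3 males remain at this dose. Slides 5 and 6 held 10 treated arrays and 0 controls, and their medians of 43.2% and 45% were the lowest of the 8. Slide was a block in every test, as set by the rule that chose the genes, and values called slide-adjusted have the fitted slide effect removed. The 7 hepatocyte markers examined (Alb, Apoa1, Ttr, Tf, Serpina1, Apob and Fgb) were well above background on all 48 arrays. A probe was called when its Benjamini-Hochberg adjusted p in limma, over 17661 probes tested, was at most 0.05 and its change at least 1.5-fold. The rats are separate animals, numbered in the sample titles. The authors' normalised values matched scanner files of the same sex and dose but mostly of another animal number, so the animal numbers given below are those of the scanner files and may not be the right ones within a group. The 95% confidence intervals below come from the same fit.

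STAT5 binds the palindrome TTCNNNGAA, which reads the same on both strands. The RefSeq promoter table (GRCr8) held 9 of the 10 genes, not Socs2, and the 250 bases before the start site were searched. Cish held 4 matches and the other 8 genes held 0, whereas 7.67% of all 33469 promoters of this length held at least 1 and 0.00598% held 4 or more. The promoters of Cish (chr8:116850719-116850968, plus strand), Igf1 (chr7:24172282-24172531, plus strand) and Igfals (chr10:14403600-14403849, plus strand) are shown because they set the inhibitor with the matches beside the 2 secreted products that fell in males. They run from 5′ to 3′ and end at the base before the start site. The capitals mark TTCNNNGAA.
Cish: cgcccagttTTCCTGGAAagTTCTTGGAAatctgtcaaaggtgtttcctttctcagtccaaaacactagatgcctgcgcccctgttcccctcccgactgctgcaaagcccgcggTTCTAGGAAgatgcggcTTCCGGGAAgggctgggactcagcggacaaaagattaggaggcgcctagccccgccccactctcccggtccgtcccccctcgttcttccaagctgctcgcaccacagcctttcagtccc
Igf1: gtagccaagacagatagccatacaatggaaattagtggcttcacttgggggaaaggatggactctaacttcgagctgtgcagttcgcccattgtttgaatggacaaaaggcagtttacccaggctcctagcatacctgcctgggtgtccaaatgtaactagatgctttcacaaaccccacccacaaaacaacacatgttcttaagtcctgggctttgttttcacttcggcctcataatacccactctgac
Igfals: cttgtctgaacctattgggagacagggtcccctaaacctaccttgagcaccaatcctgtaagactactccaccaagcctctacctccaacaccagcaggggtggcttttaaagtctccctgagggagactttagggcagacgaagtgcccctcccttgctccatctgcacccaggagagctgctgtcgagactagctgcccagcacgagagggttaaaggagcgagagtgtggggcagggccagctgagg
In the Cish promoter the matches began 241, 230, 136 and 119 bases before the start site. A match describes the letters of the window, and no match says nothing about sites elsewhere.

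The first comparison asked how these genes stood in males after the highest dose. At 2 mg/kg the receptor Ghr and the secreted products Igf1 and Igfals fell, whereas the binding protein Igfbp2 and the transcriptional repressor Bcl6 rose. These 5 of 10 genes were called, against 5.07% of all probes tested. The 10 genes were chosen with earlier results of these data known, so these shares are a description and were not compared by a test. Of all probes 2.67% were called higher and 2.4% lower. The median difference of the 10 genes was -0.33 on the log2 scale, and that of all probes was -0.02. At an unadjusted p under 0.05 the counts were 6 of 10 genes and 35.1% of all probes.

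Ghr encodes the growth hormone receptor. Its level in the 5 control males was 4.24, 4.48, 4.87, 4.93 and 5.01, and in the 5 males at 2 mg/kg it was 3.42, 3.80, 3.95, 4.06 and 4.27. Of the treated males, 4 lay below every control and 1 just above the lowest. With the slide effect removed the groups did not overlap, at 3.69 to 4.24 against 4.44 to 4.78. The fall was 0.74 ± 0.15 (SE) on the log2 scale, or 1.67-fold, with an adjusted p of 0.00045 in limma. The other 2 Ghr probes fell by 0.85 and 0.77 and were also called, although across the 48 arrays, with sex and slide means removed, the brightest probe correlated with them at 0.305 and 0.321. With median centring in place of loess the fall was 0.58, under 1.5-fold.

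Igf1 encodes the growth factor itself. Its levels were 3.77, 4.53, 4.84, 5.27 and 5.73 in the control males and 3.25, 3.51, 3.78, 4.34 and 4.40 in the males at 2 mg/kg. These ranges overlapped, and the lowest control, on slide 8, had the level of the middle treated male. Slide-adjusted levels were 3.67 to 4.10 in treated males and 4.26 to 4.99 in controls, with no overlap. Igf1 fell by 0.68 ± 0.13 (SE), or 1.6-fold, with an adjusted p of 0.000211, and the second Igf1 probe fell by 0.70. Without control male 5 the estimate was -0.53, and with the liver channel alone it was -0.32, both under 1.5-fold.

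Igfals encodes the acid-labile subunit, which keeps IGF1 in the circulation. It was at 5.27, 6.34, 6.43, 6.73 and 6.81 in control males and at 4.17, 4.41, 5.38, 5.44 and 6.22 in males at 2 mg/kg. Again the lowest control was the male on slide 8, and the highest treated male was on slide 2. Slide-adjusted levels ran from 4.90 to 5.63 in treated males and from 5.93 to 6.27 in controls. The fall of 0.83 ± 0.11 (SE), or 1.78-fold, had the smallest adjusted p of the 10 genes at 2.06e-06. Under the 3 settings that did not call it, the fall was 0.39 with the log ratio of the scanner software, 0.85 with all 49 arrays and 1.03 with the authors' values.

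On the 3 slides that held a control male beside a male at 2 mg/kg, Ghr was lower in the treated male by 0.44 to 1.06, Igf1 by 0.50 to 1.33 and Igfals by 0.51 to 1.37. As normalised, 0 of these 3 genes separated the groups fully, which 4.26% of all probes did in either direction. With the slide effect removed all 3 did, as did 16.7% of all probes in either direction. Without slides 5 and 6 the differences were -0.76, -0.71 and -0.79, and each was called. With the dim male array kept, Igf1 was the only one of the 10 genes called at 2 mg/kg, and the adjusted p of Ghr was 0.18 and that of Igfals 0.226.

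Marker lists of several cell types also differed. All 7 hepatocyte markers were lower in males at 2 mg/kg, with a median difference of -0.43 and a range of -0.51 to -0.06. Of these, 5 had an adjusted p of at most 0.05 and 0 reached 1.5-fold. The mean level of the list ran from 6.29 to 8.40 in control males and from 6.11 to 7.78 at 2 mg/kg. Of 4 bile duct markers tested, 3 were higher and called (Epcam by 0.92, Krt19 by 0.76 and Spp1 by 0.69). The mean level of that list ran from -2.45 to -1.79 in controls and from -2.06 to -0.64 at 2 mg/kg. Of 6 stellate cell markers, Col3a1 (0.85) and Lrat (0.90) were called higher, and the list ran from -0.17 (Acta2) to 0.90 with a median of 0.45. Of 6 macrophage markers 0 were called, although their median was -0.38, with a range of -0.49 to 0.27, and 2 (C1qa and Clec4f) had an adjusted p of at most 0.05. Of 4 erythroid markers, Hbb (-0.77) and Slc4a1 (-0.70) were called lower, and the list ran from -0.77 to -0.56. None of 5 endothelial and 3 lymphocyte markers were called, with medians of -0.06 and 0.25. In whole liver, fewer hepatocytes and less RNA per hepatocyte cannot be told apart, and the part of these markers in the results for Ghr, Igf1 and Igfals was not tested.

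**Figure D1:**
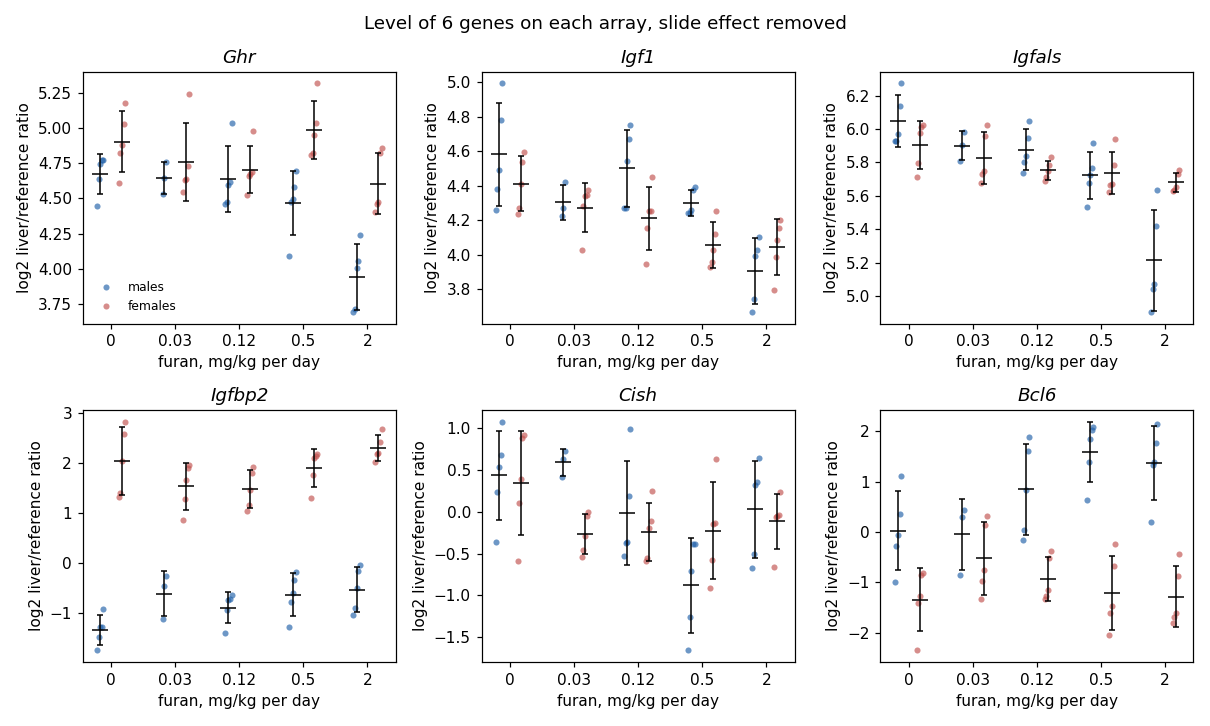
Slide-adjusted log2 liver/reference ratio of 6 genes (vertical axes, each with its own range) by furan dose (horizontal axis, evenly spaced categories) in males (blue) and females (red). Each point is 1 rat, and the black bars are the group mean and SD. The males at 2 mg/kg lie below all control males for Ghr, Igf1 and Igfals, and the sexes do not overlap for Igfbp2 at any dose.

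Igfbp2 encodes a binding protein that holds IGF1 outside the ternary complex. It was at -1.82, -1.29, -1.26, -1.19 and -1.08 in control males and at -1.31, -0.71, -0.55, -0.22 and 0.16 in males at 2 mg/kg. Of the treated males, 4 lay above every control, both before and after the slide effect was removed. Igfbp2 rose by 0.81 ± 0.29 (SE), or 1.76-fold, with an adjusted p of 0.0387, and its second probe rose by 0.87. The direction held when each of the 10 arrays was left out in turn, but the call held in 3 of the 10. It was lost without control male 2, 3, 4 or 6 and without treated male 81, 83 or 86. The adjusted p without 1 array went up to 0.116, and it was 0.0568 without slides 5 and 6.

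Bcl6 encodes a repressor that competes with STAT5 at some liver genes. Its levels were -1.44, -0.44, -0.30, 1.38 and 1.48 in control males and 0.55, 0.90, 1.05, 1.85 and 2.79 at 2 mg/kg. The control males thus spread widely, with 2 of them inside the treated range. The rise was 1.34 ± 0.48 (SE), or 2.53-fold, with an adjusted p of 0.0369. Leaving out 1 array gave 0.99 to 1.72 and adjusted p values of 0.0118 to 0.173, and the call held in 3 of 10 cases. It was lost without control male 3, 4 or 5 and without treated male 81, 83, 84 or 86. On the 3 shared slides the treated male was higher by up to 2.34 on 2 and lower by 0.92 on 1. Without slides 5 and 6 the rise was 1.12 with an adjusted p of 0.0898.

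The 5 remaining genes were not called in males at 2 mg/kg. Igfbp3, the main carrier of IGF1, differed by -0.25 ± 0.12 (SE) with an adjusted p of 0.126. Stat5b, the transducer, differed by -0.03, with a 95% confidence interval of -0.23 to 0.17. The SOCS-family inhibitors, which end receptor signalling, differed by -0.41 (Socs2), -0.16 (Socs3) and -0.41 (Cish). For Cish the interval ran from -1.10 to 0.28, and its dimmer probe had an adjusted p of 0.0334 at -0.52, under 1.5-fold. Signal limits 3 of these genes: the liver signal was well above background on 32 of 48 arrays for Socs3, 36 for Stat5b and 41 for Cish.

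**Figure D2:**
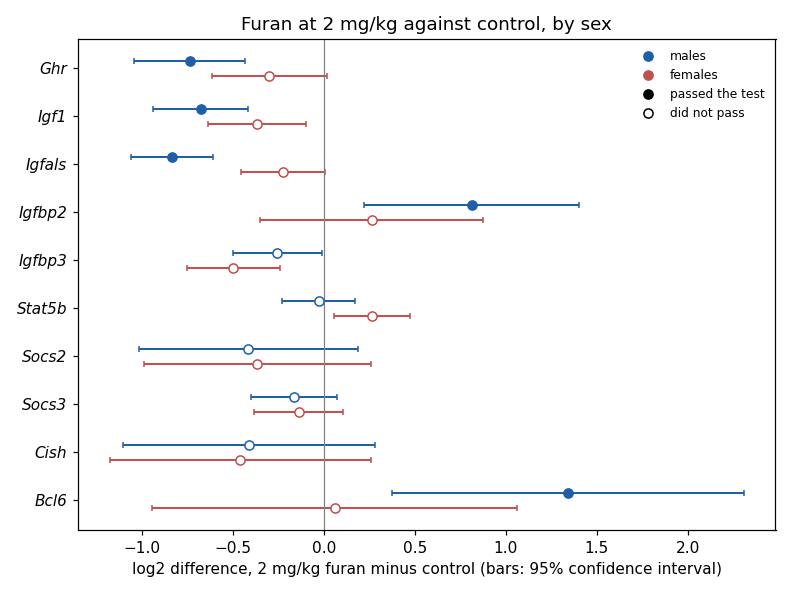
Log2 difference between rats at 2 mg/kg and control rats of the same sex (horizontal axis) for the 10 genes (vertical axis), with 95% confidence intervals; males blue, females red, filled points passed the test. Ghr, Igf1 and Igfals in males lie between -0.83 and -0.68, and the intervals of Bcl6 are the widest.

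The lower doses were then compared with the same male controls. At 0.5, 0.12 and 0.03 mg/kg 0 of 10 genes were called in males, with 0.362%, 0.306% and 0% of all probes called. At an unadjusted p under 0.05 the counts were 5, 0 and 1 genes, against 11.2%, 6.53% and 4.12% of probes. At 0.5 mg/kg these 5 included Bcl6 at 1.57 ± 0.48 (SE) with an adjusted p of 0.15 and Igfals at -0.32 ± 0.11 with 0.225. Igfbp2 was among the 5 too, and it was the 1 gene at 0.03 mg/kg. It differed from control by 0.73 at 0.03 mg/kg, 0.45 at 0.12 mg/kg and 0.71 at 0.5 mg/kg, beside 0.81 at 2 mg/kg. The second Igfbp2 probe differed by 0.82, 0.65 and 0.73 at these lower doses.

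By its brightest probe, Cish had its lowest level in males at 0.5 mg/kg. It was at -1.12, -0.99, -0.75, -0.59 and -0.09 there, and at -0.44, 0.09, 0.38, 0.76 and 1.35 in controls. The ranges overlapped through 1 treated male and 1 control. The difference was -1.32 ± 0.35 (SE) with an adjusted p of 0.0688, and without control male 6 it was -1.54 with 0.0246. At 2 mg/kg the levels were -0.99, -0.70, 0.19, 0.24 and 0.65, inside the control range except for 2 males. The dimmer Cish probe correlated with the brightest at 0.558 and had no such low point at 0.5 mg/kg. It differed from control by -0.52 at 0.5 mg/kg (adjusted p = 0.245) and by -0.52 at 2 mg/kg.

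When all 4 doses entered limma's moderated F test, 6 of 10 genes changed in males, against 18.2% of all probes. They were Igfals (adjusted p = 1.25e-05), Ghr (0.00132), Igf1 (0.00135), Cish (0.0194), Bcl6 (0.0313) and Socs2 (0.0459). Socs2 was called in 9 of 23 runs that left out 1 male array, Bcl6 in 15 of 23, and Cish was lost without male 65 or male 70 at 0.5 mg/kg. For Socs2 the differences from control were 0.71 at 0.03 mg/kg, 0.44 at 0.12 mg/kg, -0.18 at 0.5 mg/kg and -0.41 at 2 mg/kg. The difference for Igfals was -0.15 at 0.03 mg/kg, -0.17 at 0.12 mg/kg, -0.32 at 0.5 mg/kg and -0.83 at 2 mg/kg, of which the last alone was called.

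**Figure D3:**
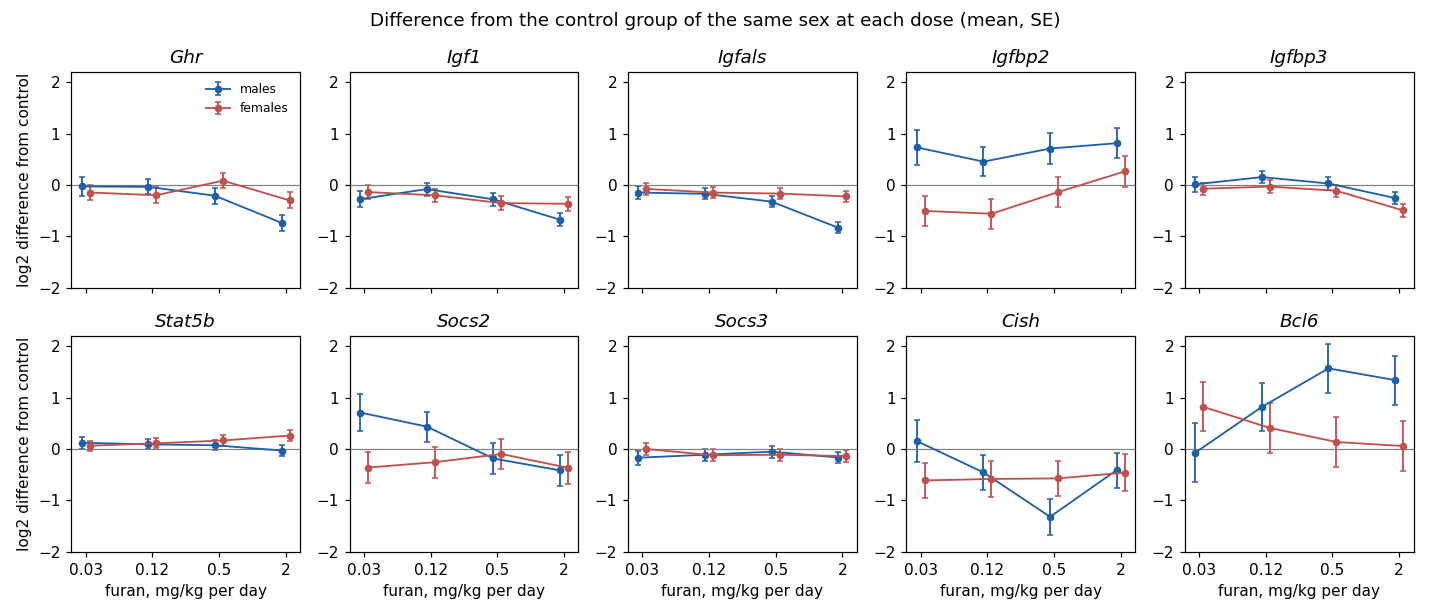
Log2 difference from the control group of the same sex (vertical axes, 1 range for all) at each furan dose (horizontal axes, evenly spaced) for the 10 genes; points are estimates of the fit and bars are SE, males blue, females red. Ghr, Igf1 and Igfals are lowest at 2 mg/kg in males, while Cish, by its brightest probe, is lowest at 0.5 mg/kg in males.

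In females 0 of 10 genes were called at 2 mg/kg, with 1.4% of all probes called. Of the 10 genes, 3 had an unadjusted p under 0.05, as had 24% of probes, and the median difference was -0.26 against 0.01 for all probes. At 0.5, 0.12 and 0.03 mg/kg the counts were 0 as well, with 0.0283%, 0.0113% and 0.017% of probes called, and 1, 0 and 0 genes had an unadjusted p under 0.05, against 15.2%, 8.45% and 6.47% of probes. Over all doses 0 of 10 changed, against 2.99% of probes, with 3 at an unadjusted p under 0.05 (19.1% of probes).

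Igfbp3 had the smallest adjusted p in females at 2 mg/kg. It was at 0.17, 0.42, 0.46, 0.95 and 1.01 in control females and at -0.16, -0.11, 0.04, 0.11 and 0.13 at 2 mg/kg. All 5 treated females lay below all 5 controls, and 4% of all probes separated these groups fully in either direction. Slide-adjusted levels ran from -0.25 to 0.24 at 2 mg/kg and from 0.32 to 0.79 in controls. The share of all probes that separated the groups with the slide effect removed was not computed in females. In males at 2 mg/kg that share was 16.7%. The difference was -0.50 ± 0.12 (SE) with an adjusted p of 0.0172, but at 1.41-fold it stayed under the fold needed for a call.

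Igf1 showed the same arrangement in females. Its levels were 4.22, 4.38, 4.76, 4.77 and 5.33 in controls and 3.57, 3.66, 3.67, 3.71 and 4.14 at 2 mg/kg, again without overlap. Slide-adjusted levels of Igf1 ran from 3.80 to 4.20 at 2 mg/kg and from 4.24 to 4.60 in controls. The difference was -0.37 ± 0.13 (SE) with an adjusted p of 0.087. Socs2 levels ran from 0.43 to 0.84 at 2 mg/kg and from 1.11 to 2.19 in controls. With the slide effect removed the Socs2 ranges overlapped, at 0.56 to 1.13 against 0.74 to 1.71. Ghr differed by -0.30 and Igfals by -0.22, with intervals of -0.62 to 0.02 and -0.46 to 0.01. Stat5b was 0.26 higher with an adjusted p of 0.112. Its levels overlapped as normalised, but the slide-adjusted levels did not, at 0.35 to 0.44 against -0.08 to 0.32 in controls. None of the 7 hepatocyte markers had an adjusted p of at most 0.05 in females, and their median difference was -0.04. Of the 4 bile duct markers 1 was called higher, and the differences ran from 0.04 to 0.66 with a median of 0.41 (Epcam 0.60). The mean level of that list ran from -2.51 to -1.94 in control females and from -1.99 to -1.37 at 2 mg/kg. The stellate cell, macrophage and erythroid lists had 0 called, with medians of 0.10, -0.19 and -0.39. The part of these markers in the values for females was not tested.

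Whether the effect of 2 mg/kg differed between the sexes was tested as an interaction, in which 1.09% of all probes were called. Igfals was the 1 of 10 genes called. It fell by 0.61 ± 0.15 (SE) more in males than in females, with an adjusted p of 0.0353. That call was lost in 10 of the 20 runs that left out 1 of the arrays involved, without slides 5 and 6 (-0.55, adjusted p = 0.0807), and under other normalisations. The arrays that decided it were control males 2 and 5, control females 7 and 11, males 81, 84 and 87 and females 83, 85 and 92 at 2 mg/kg, and without any 1 of the 20 the estimate stayed between -0.73 and -0.53. With the authors' values, fitted without a slide block, the estimate changed sign. Igfals had a single probe, so no second probe bears on the interaction.

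For the other genes the difference between the sexes was not resolved. The interval was -0.86 to -0.01 for Ghr (adjusted p = 0.246), -0.67 to 0.05 for Igf1, -0.06 to 2.62 for Bcl6 and -0.27 to 1.37 for Igfbp2. The 2 dimmer Ghr probes fell more in males by 0.71 and 0.67, with adjusted p values of 0.07 and 0.101.

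Between control males and control females 2 of 10 genes were called, against 6.42% of all probes. Igfbp2 was the larger. Its levels in control females were 1.14, 1.51, 2.05, 2.52 and 2.78, all above the control males given before, and 6.3% of all probes separated the control sexes fully in either direction. It was 3.38 ± 0.28 (SE) log2 units lower in males, or 10.4-fold, with an adjusted p of 1.06e-11. On the 4 slides that held a control of both sexes the difference was -2.34 to -4.34. Over all doses it was -2.65 ± 0.13 with an adjusted p of 7.16e-19, where 4.97% of all probes were called.

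Bcl6 was the second gene that differed by sex. The control females were at -1.66, -1.44, -1.33, -1.26 and -1.21, much closer to each other than the control males, of which 4 lay above all of them. In controls Bcl6 was 1.37 ± 0.46 (SE) higher in males with an adjusted p of 0.0299, a call that held in 4 of 10 runs without 1 array and was lost without control male 2, 4 or 6 or control female 7, 9 or 11. Over all doses the difference was 1.82 ± 0.22, or 3.53-fold, with an adjusted p of 9.65e-09, and it was called in all 48 runs without 1 array. Ghr was 0.32 ± 0.07 lower in males over all doses, 2 mg/kg included (adjusted p = 0.000202), at 1.25-fold. In controls alone Ghr was not called, with slide-adjusted means of 4.68 in males and 4.91 in females. For its dimmer probes these means were 4.34 in control males against 4.18 in control females for 1 probe, and 3.98 against 4.01 for the other. At 2 mg/kg both dimmer probes were lower in males, at 3.49 against 4.04 and 3.22 against 3.91. For Cish the probes disagreed: the brightest differed by 0.09 in controls and the dimmer was 0.95 higher in males with an adjusted p of 0.000121.

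Ordered by slide-adjusted mean over the 10 groups, neighbouring groups seldom stood apart by more than the larger of their SDs. For Ghr this held for 1 of 9 neighbouring pairs, the males at 2 mg/kg (3.94) below those at 0.5 mg/kg (4.47). For Igfals it also held for 1, the males at 2 mg/kg (5.22) below the females at 2 mg/kg (5.68). Igfbp2 had 2 such steps, between the lowest female group (1.48) and the highest male group (-0.53), and between males at 0.12 mg/kg (-0.89) and control males (-1.34). For Cish it held for 1 by the brightest probe, the males at 0.5 mg/kg (-0.88) below the females at 0.03 mg/kg (-0.26). By the dimmer Cish probe these males, at 0.75, stood above these females, at 0.14. For Igf1, Igfbp3, Socs2, Socs3, Stat5b and Bcl6 it held for 0 of 9.

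Some of the 10 genes varied together across the 48 arrays once the means of sex and slide were removed. Igf1 and Igfals correlated at 0.777 and Ghr and Igfals at 0.55, whereas Cish and Bcl6 ran opposite at -0.552. These coefficients are descriptions, since the arrays share the reference RNA, slides and dose groups. Of 9842 genes searched by the same measure, Ppm1b (0.893), Slc26a1 (0.878) and Mbl2 (0.86) were most like Igfals. Gstz1 (0.843) was most like Igf1, C8a (0.819) most like Ghr, and Foxa2 (0.757) most like Cish.

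A list of 45 further genes of both pathways had 34 with a tested probe. In males at 2 mg/kg 1 was called higher and 1 lower, where 2.67% of all probes were called higher and 2.4% lower, so the count in males is near that of all probes. In females 0 were called higher and 2 lower, where 1.4% of all probes were called. The median difference was -0.06 in males and 0.01 in females. Prlr, the prolactin receptor and a relative of Ghr, rose by 1.0 ± 0.24 (SE) in males with an adjusted p of 0.00262. In females its difference was -0.48 with an adjusted p of 0.246, and the interaction of 1.48 was called (adjusted p = 0.0239). Between control rats 3 of the 34 genes were called lower in males and 0 higher, where 6.42% of all probes were called. They were Prlr, at 4.76 lower, 1 binding protein and 1 transcription factor.

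Igfbp1, a short-lived binding protein that insulin represses, fell in both sexes at 2 mg/kg. The fall was 1.09 ± 0.29 (SE) in males (adjusted p = 0.00581) and 1.25 ± 0.30 in females (adjusted p = 0.0138). Irs2, an adaptor of the insulin and IGF1 receptors, fell by 0.94 ± 0.17 in females with an adjusted p of 0.00115. In males its difference was -0.38 with an adjusted p of 0.0875, and the interaction did not pass (0.167). Of the 4 phosphatases tested none was called, and their differences in males ran from -0.08 to 0.10.

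**Figure D4:**
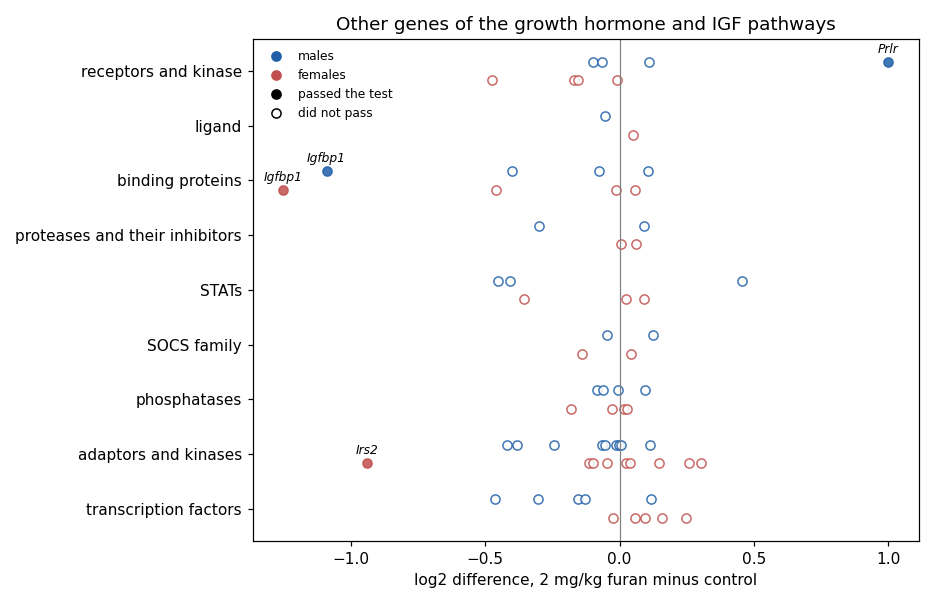
Log2 difference at 2 mg/kg from control rats of the same sex (horizontal axis) for the 34 further pathway genes, by group (vertical axis); each point is 1 gene, males blue, females red, filled points passed the test and are named. Prlr (1.0) in males and Igfbp1 (-1.09 in males, -1.25 in females) lie farthest from 0, with Irs2 (-0.94) in females.

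Of the sex-biased liver genes downstream of growth hormone, 4 were examined, and all 4 were called between control males and control females. The difference, males minus females, was 6.79 for Cyp2c11, 9.38 for Cyp3a2, -6.98 for Cyp2c12 and -6.94 for A1bg. In males at 2 mg/kg the female-biased Cyp2c12 rose by 2.04 ± 0.30 (SE) with an adjusted p of 1.09e-05, and the male-biased Cyp3a2 fell by 1.28 ± 0.32 with an adjusted p of 0.00356. Cyp2c11 differed by -0.57 (adjusted p = 0.142) and A1bg by 0.49 (adjusted p = 0.152), and neither was called. In females at 2 mg/kg 0 of the 4 were called, although A1bg differed by -0.76 (adjusted p = 0.0629). The interaction at 2 mg/kg was called for Cyp2c12 (1.85, adjusted p = 0.0236) and A1bg (1.25, adjusted p = 0.0483). For Cyp2c11 and Cyp3a2 it was not.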

How the data were processed

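Liver RNA labelled with Cy5 and universal reference RNA labelled with Cy3 were measured on 49 Agilent 2-colour arrays without dye swaps. The deposited scanner files hold spot and background intensity, a log10 ratio made by Agilent Feature Extraction 10.7.3.1, and 0 or 1 quality marks given as scores, per the file headers. The authors also deposited a log2 ratio per array that they normalised in R. Only 7 of its 49 columns matched their own animal's array best, while 46 matched an array of their own group at r above 0.99, so it was used by group only. Whether its columns or the scanner files carry the wrong animal numbers is not settled, and no test but the replicate block uses the numbers.

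Intensities were background corrected by normexp with an offset of 50 and loess normalised within each array (limma 3.58.1, R 4.3.3). Spots of a probe were averaged. Testing required a liver signal well above background on 4 or more arrays in some group (on every array of the group of 3), which left 17661 of 30367 probes. Arrays with under 10% of liver spots above background were left out. The limma model had 1 mean per sex and dose, with slide as a fixed block. All tests were 2-sided, with Benjamini-Hochberg adjustment over all probes tested. An effect at any dose was called at an adjusted p of at most 0.05, without a fold limit. Likeness and correlations used levels with the means of sex and slide removed. Gene names came from the GRCr8 RefSeq table, which named 18004 probes. The steps were tested on simulated data. The number of arrays limits the precision. Named genes were the 10 genes, the pathway genes called at 2 mg/kg in either sex, and for some of the 10 genes the most alike by correlation. The genes, lists and comparisons were chosen with earlier results of these data known. Alternatives were run on the 10 genes.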

Additional observations from a re-analysis of the deposited data

Results flagged for a closer look

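In females at 2 mg/kg, animal 90 on slide 2 had an Igf1 level of 4.145, apart from the other 4, the nearest of which was at 3.706. Among control males, animal 3 on slide 3 had an Igfbp2 level of -1.818, and the nearest of the other 4 was at -1.291. These were 2 of 90 groups examined in this way, and chance marks about 1 in 20. The fall of Igfals at 2 mg/kg differed between the sexes by -0.61 on the log2 scale in the interaction test, the 1 such difference among the 10 genes.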

How the results depend on the processing

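Counts are of the 10 genes called, with 5 in males at 2 mg/kg, 6 at any dose in males, 2 between control sexes, 1 in the interaction, and 0 in males at 0.5 mg/kg and at any dose in females as reported. Without the slide block they were 3 in males at 2 mg/kg, 1 at any dose in males, 1 between sexes and 0 in the interaction. With slide as a random block they were 1 in males at 0.5 mg/kg, 1 at any dose in females and 0 in the interaction. With all 49 arrays they were 1, 3 at any dose in males and 0 in the interaction. Median centring gave 1 between sexes and 0 in the interaction, and it moved the median of all probes to -0.15 between sexes, 0.15 in the interaction, and -0.12 and -0.11 in females at 0.5 and 0.12 mg/kg. The scanner software's log ratio gave 1 at any dose in females, 1 between sexes and 0 in the interaction. The authors' values without a slide block, added after seeing the data, gave 2 in males at 2 mg/kg, 1 at any dose, 1 between sexes and 0 in the interaction, where Igfals turned to 0.0223. The liver channel alone gave 3 in males at 2 mg/kg and 2 at any dose in females. Array weights gave 1 at any dose in females and 0 in the interaction, no filter gave 3 in males at 2 mg/kg, the 80% filter gave 1 at any dose in females, and the mean of probes gave 2 in the interaction. Without slides 5 and 6, also added after seeing the data, the counts were 3 in males at 2 mg/kg, 3 at any dose and 0 in the interaction. Leaving out 1 array gave 3 to 5 in males at 2 mg/kg, 3 to 6 at any dose in males, 0 to 1 at any dose in females, 0 to 1 in males at 0.5 mg/kg, 1 to 2 between sexes and 0 to 1 in the interaction. The cause of these differences was not tested. The authors' values with a slide block were not run, since their columns could not be tied to animals.

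Over all probes, 895 were called in males at 2 mg/kg, against 507 with the authors' values and 1464 with the scanner software's log ratio. In females at 2 mg/kg 248 were called, with a range of 116 to 509. The range was 651 to 1587 between control sexes (1134 as reported), 647 to 2099 between sexes over all doses (878) and 3 to 285 in the interaction (192). For an effect at any dose it was 520 to 3528 in males (3221) and 23 to 2236 in females (528). At lower doses it was 7 to 75 in males at 0.5 mg/kg (64), 8 to 67 in males at 0.12 mg/kg (54), 0 to 3 in males at 0.03 mg/kg (0), 0 to 242 in females at 0.5 mg/kg (5), 0 to 9 at 0.12 mg/kg (2) and 0 to 11 at 0.03 mg/kg (3). The shares of all probes given beside the counts therefore hold for the reported setting.

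Of 8 pairs of a male and a female that shared an animal number and dose, 6 deviated together at r above 0.1, over a range of -0.271 to 0.569. The pairs on a shared slide had r of 0.377 and 0.569. The numbers are those of the scanner files, may not be the right ones within a group, and were not taken as pairs. With the replicate block the counts stayed at 2 between control sexes, 2 over all doses and 1 in the interaction (Igfals -0.61).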
